A study of Mus musculus with 50 samples.

Results

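The 7 genes that encode the subunits of the NMDA receptor in the mouse, Grin1, Grin2a, Grin2b, Grin2c, Grin2d, Grin3a and Grin3b, were followed through 50 RNA-seq libraries of the nucleus accumbens (NAc). They were chosen by symbol, and all 7 are listed among the 24552 genes of each deposited count table. The study asked how the medium spiny neurons (MSNs) that carry the dopamine receptor D1 or D2 differ, and whether either kind responds to social defeat. RT mice carry a ribosomal protein that receives an HA tag where Cre recombinase is active, so that precipitation with an HA antibody gives the ribosome-bound mRNA of Cre-positive cells (IP), while input is RNA of all cells. Mice of the C57BL/6 strain, 8 to 12 weeks old, with the genotype RT; D1-Cre or RT; D2-Cre were left as controls (Con) or were defeated by a CD1 aggressor for up to 10 days and then called resilient (Res) or susceptible (Sus). IPs numbered 13 for D1 (4 Con, 4 Res and 5 Sus) and 15 for D2 (5 in each group), and there were 18 inputs (3 for each line and group). Of 4 further D1 IPs, from undefeated males labelled RT; Sirt1-floxed; D1-Cre, the labels give no age, and they are compared with the 4 D1 Con IPs, which lack the floxed allele. Each library pooled NAc punches of 2 mice. Cre was driven by a receptor gene in both lines, and Drd2 is also active in cholinergic interneurons, so a D2 IP can hold their RNA.

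NMDA receptors are glutamate-gated channels that admit calcium once glutamate and glycine or D-serine are bound and the membrane is depolarised, which is the step that starts many forms of synaptic plasticity. Every receptor needs GluN1, the glycine-binding subunit encoded by Grin1. It is joined by glutamate-binding GluN2 subunits (Grin2a to Grin2d), which set how fast the channel closes and how strongly magnesium blocks it, or by GluN3 subunits (Grin3a and Grin3b), which lower calcium entry. In forebrain neurons Grin2a and Grin2b are the usual partners of Grin1, Grin2b being dominant early in life, while Grin2c is best known from cerebellar granule cells and astrocytes, Grin2d from interneurons and the brainstem, and Grin3b from motor neurons.

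On GRCm38 with GENCODE vM21, Grin1 lies at chr2:25291181-25319187, Grin2a at chr16:9567898-9995560, Grin2b at chr6:135713233-136173511, Grin2c at chr11:115249169-115267243, Grin2d at chr7:45831883-45878378 and Grin3a at chr4:49661611-49845744, all on the minus strand, and Grin3b at chr10:79970715-79977190 on the plus strand. Their exons, merged over transcripts, span from 3.296 kb (Grin3b) to 24.84 kb (Grin2b), so levels of different genes are compared only per kb of that length. Some of the gene spans overlap other genes, and overlap of their exons was not examined. The strand setting of the counting is not given in the sources used here. Grin2d, with 154 to 528 counts in the IPs, overlaps Kdelr1 (1142 to 1766 counts). Grin3b, with 0 to 12 counts, overlaps Tmem259 (1809 to 2799 counts), and Grin1, with 15227 to 23722, overlaps Grin1os (13 to 92). Grin3a, with 587 to 2296, overlaps Ppp3r2 (1 to 38) on the same strand. Reads of Grin2d and Grin3b are therefore the less certain ones.

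Depth was 21591075 to 31009626 counts on genes in the 28 IPs, 18384265 to 28179940 in the inputs and 22174187 to 31785984 in the libraries labelled Sirt1-KO. Summed D1 marker genes (Drd1, Chrm4, Tac1, Pdyn) were at 1101 to 1553 CPM (counts scaled to a common library total, with TMM factors) in D1 IPs and 396 to 638 in D2 IPs, and summed D2 markers (Drd2, Gpr6, Adora2a, Penk) at 2061 to 3471 in D1 IPs and 5647 to 7999 in D2 IPs, in accord with the labels. Glia were depleted: summed astrocyte markers were at 37.9 to 95.8 CPM in IPs against 791 to 1010 in inputs, and oligodendrocyte markers at 403 to 786 against 3465 to 5399. Cortical excitatory neuron genes (6 genes, Slc17a7 among them) summed to 402 to 1428 CPM in D1 IPs, 21.9 to 318 in D2 IPs and 73.9 to 1124 in inputs; MSNs are not known to express these genes. Cholinergic genes (Chat, Slc18a3 and 4 others) summed to 29.0 to 58.6 in D1 IPs and 63.1 to 138 in D2 IPs. The 4 IPs numbered 5 (D1 Sus, D2 Con, D2 Res and D2 Sus) stood apart from the other 24, with Malat1, a nuclear RNA, at 1578 to 2997 CPM against 449 to 1268, and 13.9 to 17.6% of reads on no gene feature against 10.4 to 16.8%. Where leaving them out changed a call or turned a direction given below, both values are given.

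Within IPs the receptor mRNA was mostly Grin1 and Grin2b, with Grin3a next. In D1 IPs the mean level per kb was 81.2 CPM per kb for Grin1, 7.80 for Grin2b, 5.46 for Grin3a, 1.75 for Grin2d, 1.44 for Grin2c, 0.795 for Grin2a and 0.0436 for Grin3b. In D2 IPs the same genes were at 80.6, 8.67, 3.35, 1.54, 1.89, 0.813 and 0.0469 CPM per kb. These means include the IPs numbered 5. Without those the fitted difference between the lines turned direction for Grin2a and Grin2b, as given below. Grin1 stood above Grin2b and Grin2a above Grin3b in all 28 IPs. Other neighbours were closer: Grin2b exceeded Grin3a in 12 of 13 D1 IPs and 15 of 15 D2 IPs, and Grin2d exceeded Grin2c in 12 of 13 D1 IPs while Grin2c exceeded Grin2d in 13 of 15 D2 IPs, with overlapping ranges over the libraries for both pairs.

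Inputs had another order. There Grin1 was at 45.8 CPM per kb, and Grin2c at 9.94 came next, above Grin2b (7.61) in 18 of 18 inputs, followed by Grin3a at 5.25, Grin2d at 2.66, Grin2a at 1.86 and Grin3b at 0.104. As a share of the summed CPM per kb of the family, Grin1 made up 82.5% ± 2.63 (SD, n = 13) in D1 IPs, 83.3% ± 3.55 (SD, n = 15) in D2 IPs and 62.6% ± 1.64 (SD, n = 18) in inputs. The ratio of Grin2b to Grin2a per kb was 9.93 ± 2.41 (SD, n = 13) in D1 IPs, 10.8 ± 3.53 (SD, n = 15) in D2 IPs and 4.11 ± 0.358 (SD, n = 18) in inputs. These shares depend on the exon lengths used, and the annotation with which the reads were counted is not given in the sources used here.

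**Figure D1:**
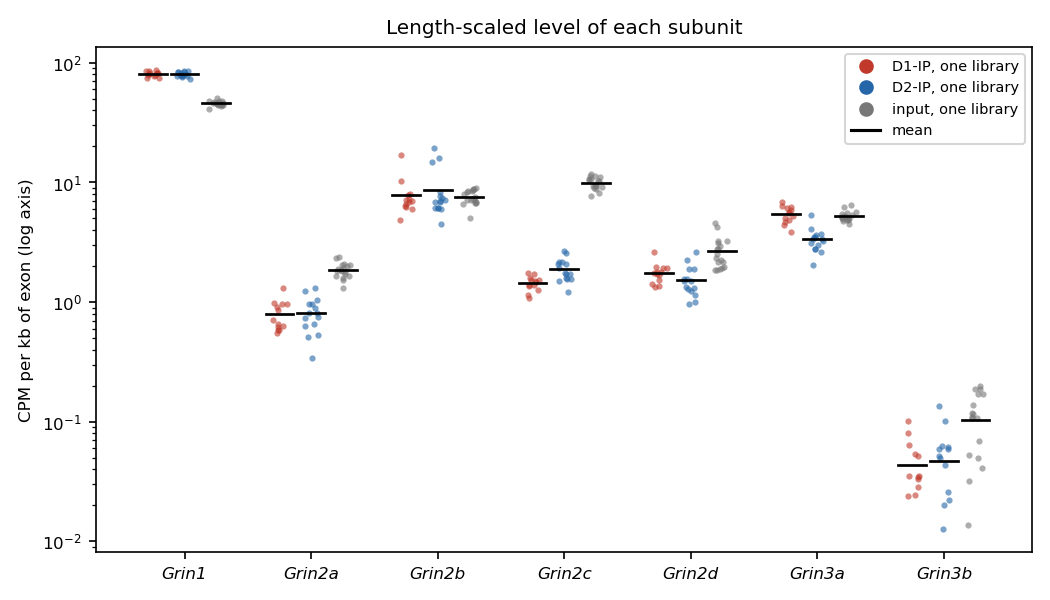
Level of each NMDA receptor gene in CPM per kb of exon (log axis) in D1 IPs, D2 IPs and inputs, 1 point per library. Grin1 stands above all others, and Grin2c holds the second place in inputs (9.94 CPM per kb on average) but not in IPs (1.44 and 1.89).

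**Figure D2:**
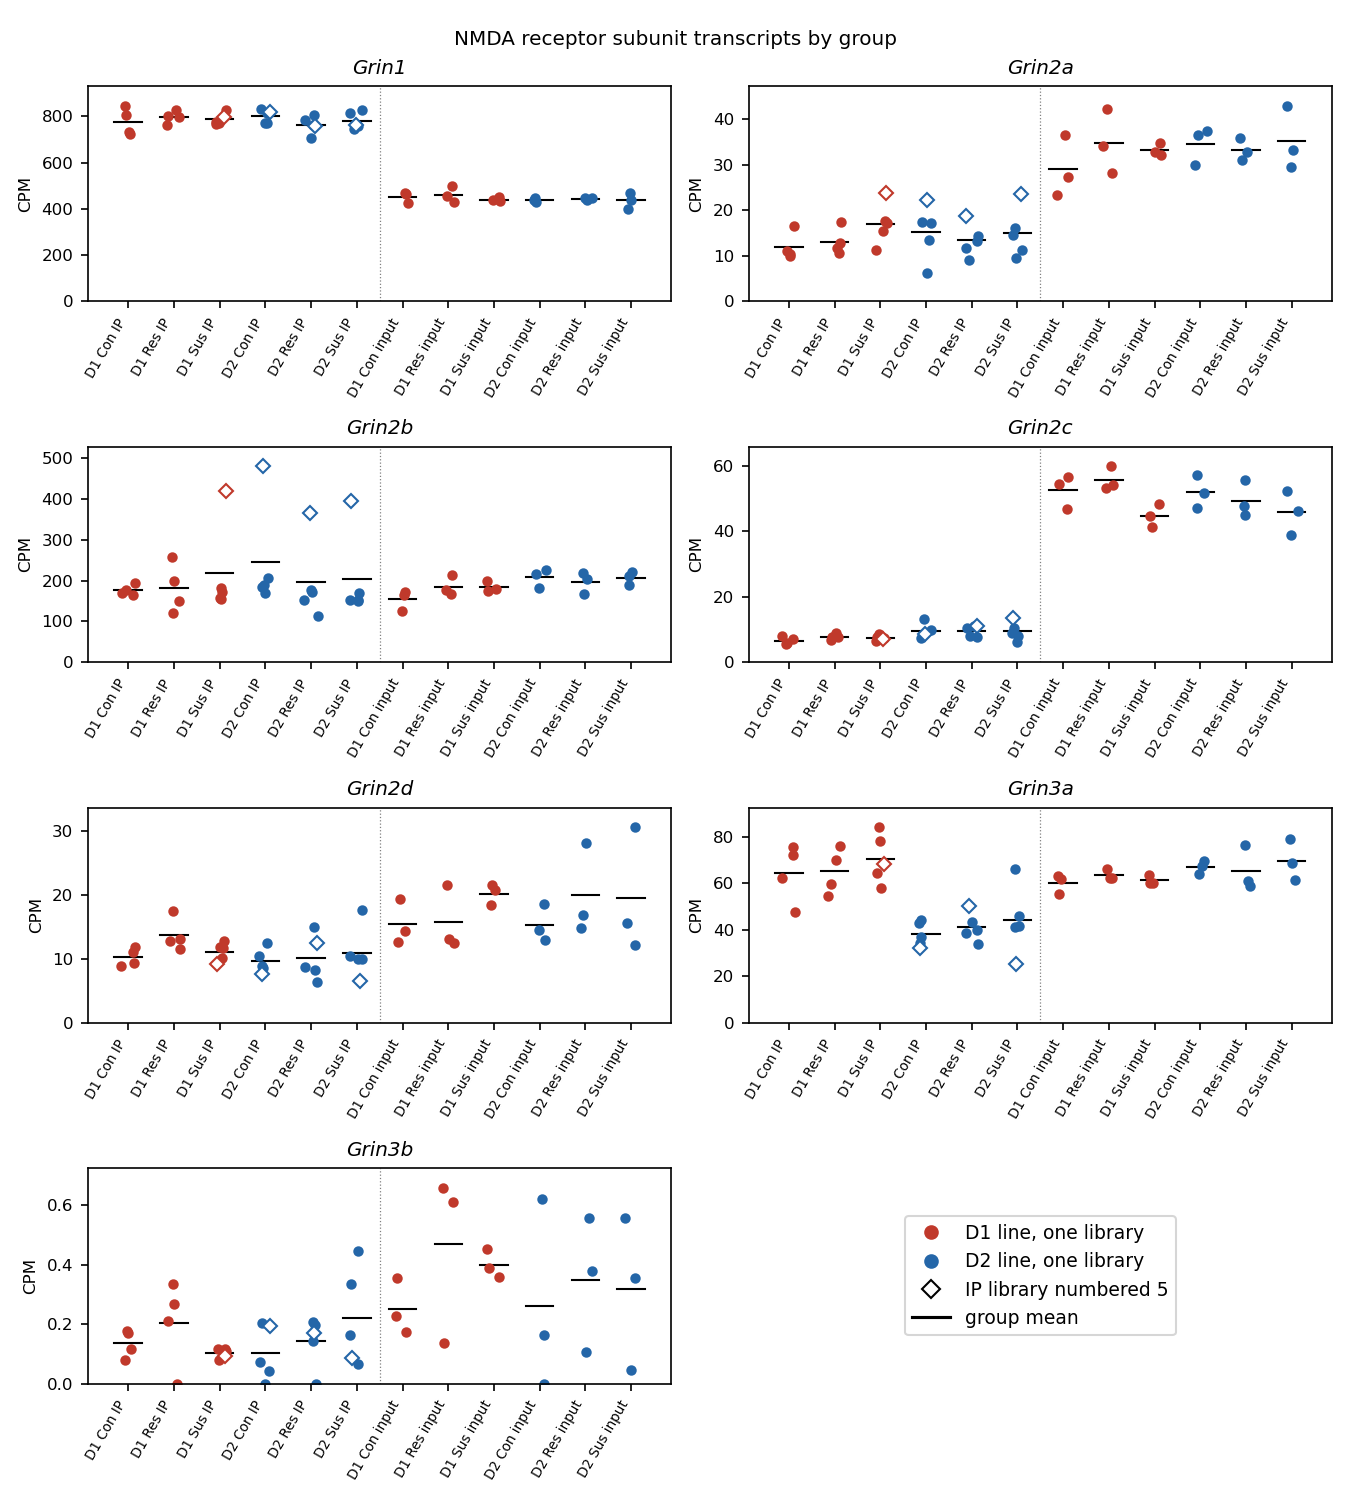
Level of the NMDA receptor genes in CPM in each library of the 12 groups of line, fraction and stress, with open diamonds for the 4 IPs numbered 5. Grin1 is higher and Grin2c lower in IPs than in inputs throughout, Grin3a is higher in D1 than in D2 IPs on average, and the diamonds of Grin2b sit at 367 to 480 CPM above every other IP.

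Comparing IP with input asks whether a subunit's mRNA is richer in the ribosomes of the tagged neurons than in the whole tissue. Grin1, the obligatory subunit, rose in both lines, whereas Grin2a, Grin2c and Grin2d were lower in IPs of both lines and Grin3a was lower in D2 IPs. At an adjusted p under 0.05, 5 of 7 members were called in D1 (1 higher, 4 lower), where 81.9% of all genes tested were called (39.2% higher, 42.7% lower). In D2, 6 of 7 were called (1 higher, 5 lower), where 82.7% of all genes were (37.8% higher, 44.9% lower). A call by itself is therefore common here, and the sizes below matter more. The median log2 change of all genes was -0.04 in D1 and -0.08 in D2. In bulk RNA of this kind, fewer cells of a type and less RNA per cell cannot be told apart.

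Grin1 was at 725, 798 and 846 CPM (lowest, median and highest) in the D1 IPs, at 705, 773 and 833 in the D2 IPs and at 400, 442 and 497 in the inputs. No IP reached down to any input. The rise was 1.75-fold in D1 (log2 0.81, SE 0.033, adjusted p = 2.43e-24) and 1.78-fold in D2 (log2 0.83, SE 0.0323, adjusted p = 3.32e-25), and groups without overlap were found for 48.3% and 44.3% of all genes.

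Grin2c was at 5.49, 7.38 and 8.75 CPM in the D1 IPs, 6.09, 8.83 and 13.5 in the D2 IPs and 38.9, 49.9 and 59.9 in the inputs. All inputs were above all IPs. The gene fell 7.06-fold in D1 (log2 -2.82, SE 0.0947, adjusted p = 3.16e-27) and 5.18-fold in D2 (log2 -2.37, SE 0.0884, adjusted p = 9.20e-26), and the difference between the lines in this change was -0.45 on the log2 scale (SE 0.131, adjusted p = 0.00944). The astrocyte marker list moved the same way, with 6 of 6 genes lower in the IPs of each line at a median log2 change of -3.45 in D1 and -3.88 in D2; its part in the result was not tested.

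Grin2a, the subunit gene that gains weight in mature forebrain, was at 9.85, 12.7 and 23.7 CPM in the D1 IPs, 6.12, 14.4 and 23.6 in the D2 IPs and 23.4, 33.0 and 42.9 in the inputs. Only D1 Sus replicate 5 (23.7) and D2 Sus replicate 5 (23.6) came into the range of the inputs, although within the D2 line the groups did not overlap. Grin2a fell 2.33-fold in D1 (log2 -1.22, SE 0.152, adjusted p = 1.60e-09) and 2.36-fold in D2 (log2 -1.24, SE 0.146, adjusted p = 3.90e-10).

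Grin2b, in contrast, was not called in either line. It was at 120, 173 and 420 CPM in the D1 IPs, at 112, 173 and 480 in the D2 IPs and at 125, 185 and 225 in the inputs. The highest IP value in D2 and in D1 came from libraries numbered 5, and the log2 change was 0.13 in D1 (SE 0.196, adjusted p = 0.527, 95% interval of the fold 0.835 to 1.44) and 0.07 in D2 (SE 0.189, adjusted p = 0.726, 0.807 to 1.37). Without the libraries numbered 5 the direction in D2 turned, to -0.28 on the log2 scale (adjusted p = 0.00401).

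Grin2d and the GluN3 genes were also lower or level. Grin2d was at 8.92, 11.7 and 17.5 CPM in the D1 IPs, 6.45, 9.91 and 17.6 in the D2 IPs and 12.2, 16.3 and 30.6 in the inputs, with overlap, and fell 1.46-fold in D1 (adjusted p = 0.00139) and 1.77-fold in D2 (adjusted p = 4.01e-06). Grin3a was at 47.7, 68.1 and 84.1 CPM in the D1 IPs, 25.2, 41.3 and 66.1 in the D2 IPs and 55.5, 62.6 and 79.0 in the inputs. In D2 it fell 1.64-fold (log2 -0.71, SE 0.0955, adjusted p = 9.31e-09), while in D1 it was not called (log2 0.11, SE 0.099, adjusted p = 0.293, interval of the fold 0.941 to 1.24). The difference between the lines was 0.82 on the log2 scale (SE 0.138, adjusted p = 1.73e-05). Together with Grin2c it made 2 of 7 members called for that difference, against 25.5% of all genes.

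Grin3b was near the floor of detection, at 0 to 12 counts in the IPs and 0 to 14 in the inputs. Its fitted log2 change was -1.30 in D1 (SE 0.438, adjusted p = 0.00653) and -1.03 in D2 (SE 0.444, adjusted p = 0.0315), sizes that depend on the prior count. The call in D2 was lost without D2 Con IP replicate 3, D2 Sus IP replicate 1, D2 Con input replicate 2, D2 Res input replicate 1 or 3 or D2 Sus input replicate 1 or 2, with a log2 change of -0.54 and an adjusted p of 0.334 at the weakest, without D2 Con input replicate 2.

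**Figure D3:**
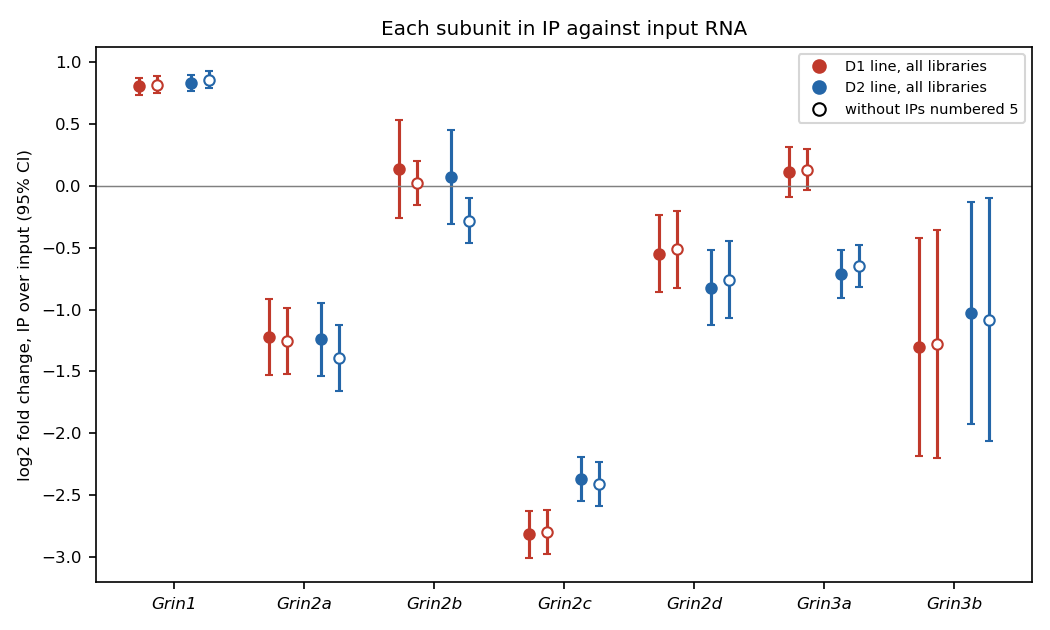
Log2 fold change of IP over input for each NMDA receptor gene in the D1 and D2 lines, with 95% intervals; filled points use all libraries and open points leave out the IPs numbered 5. Grin1 lies at 0.81 and 0.83, Grin2c at -2.82 and -2.37, and only Grin3a and Grin2c differ between the lines by the test of that difference.

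Between D1 and D2 IPs the family split into a pair of genes that differed and 4 that were not called. Grin3a, whose product lowers calcium entry, was higher in D1 IPs, and Grin2c was lower. These 2 of 6 tested members compare with 40.8% of all genes called at an adjusted p under 0.05 over the mean of the stress groups (19.6% higher in D1, 21.3% lower); with a fold over 1.5 as well, Grin3a alone passed, against 7.66% of all genes. Grin3b did not pass the filter on low counts and was not tested.

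Grin3a was at 47.7, 72.3, 75.4 and 62.3 CPM in the D1 Con IPs and at 42.8, 34.4, 44.4, 37.0 and 32.3 in the D2 Con IPs. In the Res groups it was at 69.8, 76.2, 54.6 and 59.7 in D1 and at 33.8, 40.0, 38.5, 43.2 and 50.3 in D2. In the Sus groups it was at 64.5, 57.8, 84.1, 78.4 and 68.1 in D1 and at 66.1, 41.3, 45.8, 41.7 and 25.2 in D2. Every D1 library stood above every D2 library of its own group in Con and Res, and in Sus only D2 Sus replicate 1, at 66.1, rose into the D1 range. Over the mean of the 3 stress groups Grin3a was 1.61-fold higher in D1 (log2 0.68, SE 0.0989, 95% interval of the fold 1.40 to 1.85, adjusted p = 2.26e-06), and a two-sided permutation test of 13 against 15 libraries gave p = 1e-05, the smallest its 100000 resamples can give.

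The size was much the same in each stress group. Grin3a was higher in D1 by 0.74 on the log2 scale in Con (adjusted p = 0.00398), by 0.65 in Res (adjusted p = 0.00954) and by 0.66 in Sus (adjusted p = 0.00491), in comparisons where 14%, 17.5% and 17.6% of all genes were called; groups without overlap made up 12.9% of genes in Con and 16.8% in Res. Without the IPs numbered 5 the difference over the groups was 0.65 (adjusted p = 1.08e-06). In the inputs, where both lines hold all cells, Grin3a differed by -0.13 on the log2 scale (SE 0.054, unadjusted p = 0.0302, adjusted p = 0.946).

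Other cell types moved beside Grin3a. All 6 cortical excitatory genes were higher in D1 than in D2 IPs, at a median log2 difference of 2.02, and all 10 MSN genes were lower, at -0.32. Of the 6 cholinergic genes 1 was higher and 3 were lower, at a median of -1.83, and 6 of 6 astrocyte genes were higher, at 0.49. Across libraries of a kind, log2 levels of Grin3a and of the summed cortical genes had Pearson r = 0.75 over the 13 D1 IPs, -0.67 over the 15 D2 IPs and -0.27 over the 18 inputs, points that share tissue punches and normalization. With the cholinergic sum, r was -0.26 in D1 IPs, 0.83 in D2 IPs and 0.29 in inputs, and with the MSN sum -0.81, -0.78 and -0.74. D2 Sus replicate 1, the D2 IP with the highest Grin3a, had the lowest cortical sum of all IPs (21.9 CPM) and the highest cholinergic sum (138 CPM). The part of these cell types in the difference of Grin3a between the lines was not tested.

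Grin2c was at 5.49, 5.72, 6.95 and 8.08 CPM in the D1 Con IPs and at 7.49, 13.0, 8.65, 9.65 and 8.59 in the D2 Con IPs. In Res it was at 8.75, 7.60, 7.65 and 6.82 in D1 and 7.80, 10.6, 7.90, 10.9 and 10.99 in D2, and in Sus at 7.38, 7.72, 6.34, 8.61 and 6.98 in D1 and 6.09, 10.5, 8.83, 8.02 and 13.5 in D2. The ranges overlapped in each group, with D2 Sus replicate 1 the lowest of all D2 libraries. Over the mean of the groups Grin2c was 1.33-fold lower in D1 (log2 -0.41, SE 0.101, adjusted p = 0.00172, two-sided permutation p = 0.00113), and without the IPs numbered 5 the difference was -0.33 (adjusted p = 0.0087). By group it was -0.54 in Con (adjusted p = 0.0415), -0.33 in Res (adjusted p = 0.208) and -0.35 in Sus (adjusted p = 0.153; -0.16, adjusted p = 0.603, without the IPs numbered 5). The call in Con was lost without D1 Con replicate 1, 2 or 3 or D2 Con replicate 2 or 4 (adjusted p up to 0.139), and without D2 Sus replicate 1 the difference in Sus was called (-0.48, adjusted p = 0.0364). All 6 astrocyte marker genes were higher in D1 than in D2 IPs, while within a line Grin2c and the astrocyte sum had r = 0.66 over the 13 D1 IPs and 0.70 over the 15 D2 IPs; the part of astrocyte RNA in the difference was not tested.

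For the remaining genes the lines could not be separated. Grin1 differed by 0.00 on the log2 scale with a narrow interval, a fold of 0.959 to 1.04 (adjusted p = 0.946). Grin2d differed by 0.17 (adjusted p = 0.288). Grin2a differed by -0.08 (adjusted p = 0.701) with all libraries and by 0.06 (adjusted p = 0.787) without those numbered 5. Grin2b differed by -0.18 (adjusted p = 0.495) with all libraries and by 0.08 (adjusted p = 0.511) without those numbered 5, so that the directions of both turned on them.

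The libraries numbered 5 differed from the other IPs more in Grin2b than in any other member. Grin2b was at 420 CPM in D1 Sus replicate 5, 480 in D2 Con replicate 5, 367 in D2 Res replicate 5 and 396 in D2 Sus replicate 5. The other 24 IPs lay between 112 and 257 CPM and the inputs between 125 and 225, so that these 4 libraries stood above every other IP and every input. The mean log2 difference was 1.33, or 2.51-fold, which ranked 13 of 14224 genes in that direction. Grin2a, the other main forebrain subunit, was at 18.8 to 23.7 CPM in the same 4 libraries against 6.12 to 17.7 in the other 24, a 1.68-fold difference that ranked 137, and it too was above every other IP, as were 171 genes (1.20%). Grin1 (log2 0.00), Grin2c (0.18), Grin2d (-0.27) and Grin3a (-0.22) overlapped between these libraries and the rest.

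The library labelled Sirt1-KO replicate 5 showed the same for Grin2b, with 399 CPM against 164 to 207 in the other 3, but not for Grin2a, with 17.2 against 12.8 to 24.7. Its Malat1 level was 1164 CPM against 596 to 852. What the number 5 stands for (a day, a run or a cohort) is not given in the labels, and D1 Con and D1 Res have no library with that number among those used here. These libraries were picked after their values were seen, and no test was made of their difference.

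**Figure D4:**
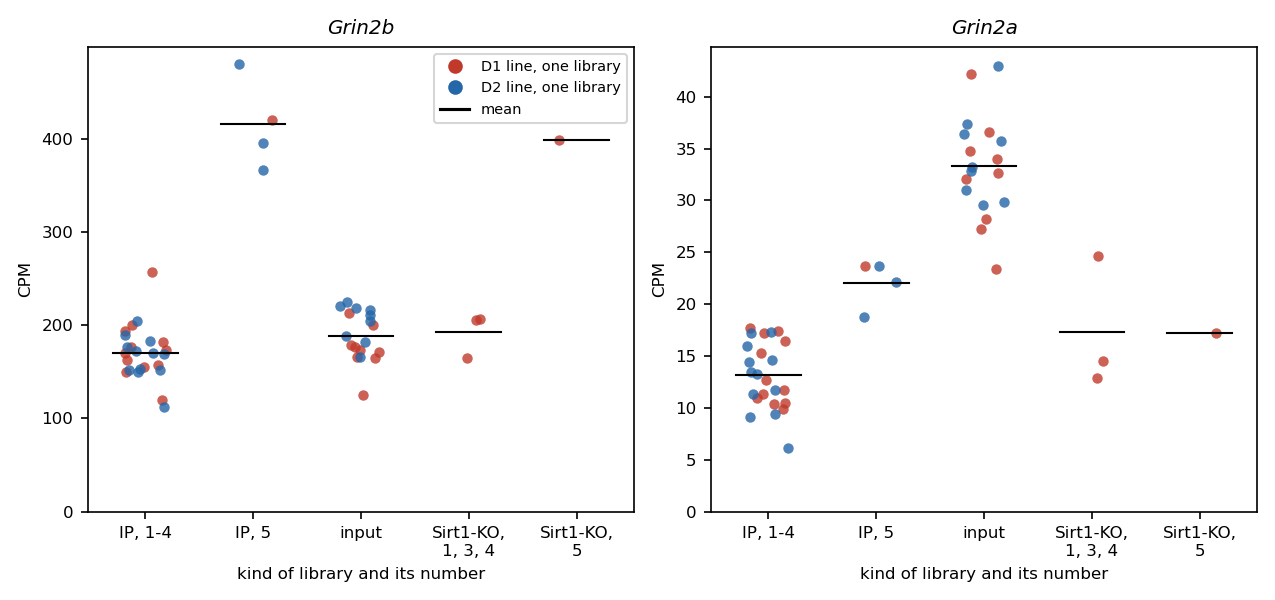
Grin2b and Grin2a in CPM per library, with the IPs and the Sirt1-KO library numbered 5 set apart from the other IPs, the inputs and the other Sirt1-KO libraries; the Sirt1-KO table was normalized on its own. Grin2b of the IPs numbered 5 lies at 367 to 480 CPM against 112 to 257 in the other IPs, and Grin2a at 18.8 to 23.7 against 6.12 to 17.7.

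Whether social defeat changed a subunit was asked within each line, between Sus, Res and Con. No member was called by edgeR in any of the 6 comparisons, nor in the 3 tests of whether the stress difference itself differed between D1 and D2, and by DESeq2 none was called either. This was so for nearly all genes: D1 Res against Con held 1 called gene (0.00703%) and each of the others 0 (0%), with DESeq2 giving 1 and 0 likewise. At an unadjusted p under 0.05, edgeR gave 759 (5.34%), 300 (2.11%) and 601 (4.23%) genes in D1 for Sus against Con, Res against Con and Sus against Res, 523 (3.68%), 430 (3.02%) and 236 (1.66%) in D2, and 259 (1.82%), 335 (2.36%) and 289 (2.03%) for the differences between the lines, and no member was among them. With a term for the libraries numbered 5, Grin2b in D2 had an unadjusted edgeR p of 0.0444 for Sus against Con and 0.0195 for Res against Con. Without these libraries Grin3a in D2 had 0.0391 for Sus against Res, and none of these was called. For that contrast the log2 difference of Grin3a was 0.33 without the libraries numbered 5 and 0.10 with all libraries. Leaving out D2 Sus replicate 1 alone gave -0.09. The comparisons within a line share libraries.

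Grin1 was at 846, 732, 806 and 725 CPM in the D1 Con IPs, at 826, 803, 761 and 798 in D1 Res and at 777, 765, 826, 771 and 799 in D1 Sus. In D2 it was at 772, 773, 833, 815 and 818 in Con, at 705, 805, 760, 782 and 758 in Res and at 756, 745, 814, 825 and 763 in Sus. All 6 groups overlapped, and the interval of the fold of Sus over Con ran from 0.942 to 1.08 in D1 and from 0.911 to 1.04 in D2. These 2 intervals were the narrowest of the 6 tested members.

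With all libraries and no added term, the smallest p belonged to Grin2a in D1, which was at 10.99, 9.85, 10.4 and 16.4 CPM in Con, 11.8, 12.7, 10.5 and 17.4 in Res and 15.3, 11.3, 17.7, 17.3 and 23.7 in Sus. The Sus libraries overlapped the others, and the log2 difference of Sus from Con was 0.51 (SE 0.274, 95% interval of the fold 0.968 to 2.10, unadjusted p = 0.0714, adjusted p = 0.846). Without the IPs numbered 5 of both lines it was 0.37 (SE 0.235, adjusted p = 0.84). In D2, Grin2a was at 6.12, 13.5, 17.3, 17.2 and 22.2 in Con, 9.11, 11.7, 13.3, 14.4 and 18.8 in Res and 11.3, 9.42, 14.6, 16.0 and 23.6 in Sus, with a log2 difference of Sus from Con of -0.03 (interval of the fold 0.683 to 1.41).

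Grin2b was at 170, 163, 176 and 194 CPM in D1 Con, at 150, 257, 120 and 200 in D1 Res and at 173, 156, 157, 182 and 420 in D1 Sus. The last value, of replicate 5, carried the Sus mean. The log2 difference of Sus from Con was 0.30 (interval of the fold 0.749 to 2.03), and -0.08 without the IPs numbered 5 of both lines. In D2 the values were 170, 190, 205, 183 and 480 in Con, 112, 176, 173, 152 and 367 in Res and 152, 153, 150, 171 and 396 in Sus, and Sus differed from Con by -0.27 (interval 0.522 to 1.33). These are wide limits, which with all libraries include a rise of Grin2b of 1.5-fold in D1 and a fall of 1.5-fold in D2.

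Grin2d was at 8.92, 9.43, 11.1 and 11.8 CPM in D1 Con, 17.5, 11.5, 13.1 and 12.8 in D1 Res and 11.7, 12.8, 10.2, 11.8 and 9.14 in D1 Sus. The lowest Res library lay below the highest Con library and the other 3 above it, with a log2 difference of 0.41 (SE 0.227, interval of the fold 0.962 to 1.83, unadjusted p = 0.0822, adjusted p = 1.00). In D2 it was at 8.52, 8.93, 10.5, 12.5 and 7.63 in Con, 8.19, 8.74, 6.45, 14.99 and 12.5 in Res and 17.6, 10.0, 9.91, 10.4 and 6.60 in Sus, with overlap throughout. For Grin2c and Grin3a, given by library above, the difference of Sus from Con was 0.17 (interval of the fold 0.873 to 1.46) and 0.13 (0.856 to 1.40) in D1 and -0.02 (0.781 to 1.25, with a difference of -0.22 without the IPs numbered 5) and 0.21 (0.912 to 1.47) in D2. Without D2 Sus replicate 1 the difference of Grin3a in D2 was 0.01.

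The inputs gave the same question for whole tissue, over both lines. No member was called for stress or line; all genes gave 0 calls (0%) in each stress comparison and 3 (0.0202%) between the lines, and DESeq2 gave 3 genes for Sus against Con and 15 between the lines, with no member among them. Unadjusted p-values under 0.05 were found for 663 genes (4.47%) in Sus against Con, 478 (3.23%) in Res against Con, 821 (5.54%) in Sus against Res and 770 (5.2%) between the lines. Among them, Grin2c was lower in Sus inputs than in Con by 0.20 on the log2 scale (SE 0.0763, unadjusted p = 0.016, adjusted p = 0.979) and than in Res by 0.21 (SE 0.0764, unadjusted p = 0.0135, adjusted p = 0.901). Grin2b was lower in D1 than in D2 inputs by 0.23 (SE 0.0771, unadjusted p = 0.00828, adjusted p = 0.81). None of these held after adjustment over all genes in edgeR's quasi-likelihood test.

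For the floxed comparison the targeted gene, Sirt1, was looked at first. It was at 15.2, 16.2, 13.2 and 10.2 CPM in the libraries labelled Sirt1-KO (replicates 1, 3, 4 and 5) and at 13.1, 16.6, 14.8 and 14.4 in D1 Con. The groups overlapped, with a log2 difference of -0.10 (SE 0.133, adjusted p = 0.768). A count over the whole gene need not fall when only some exons are removed, so it does not check the label. The cortical genes summed to 855 to 1611 CPM in the libraries labelled Sirt1-KO against 380 to 1043 in D1 Con. Of them 0 of 6 were called, and 6 of 6 had an unadjusted p under 0.05, against 17.3% of all genes. The cholinergic genes summed to 20.6 to 26.9 against 34.0 to 36.3, with 2 of 5 tested genes lower against 1.04% of all genes. Their part in the results below was not tested. The labels give no batch, and a batch and the genotype cannot be told apart.

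By edgeR, 0 of 6 tested members were called between these groups, against 1.66% of all genes (226 of 13626), and 3 of 6 had an unadjusted p under 0.05, against 17.3% of all genes. Grin2a was at 12.8, 24.7, 14.5 and 17.2 CPM in the libraries labelled Sirt1-KO and at 10.4, 9.34, 9.87 and 15.6 in D1 Con. Only the D1 Con library at 15.6 reached above the lower values of the former, and the log2 difference was 0.62 (SE 0.21, adjusted p = 0.156). DESeq2 called it at 0.61 (adjusted p = 0.047), and an exact permutation test of 4 against 4 gave p = 0.0857, where the smallest possible value is 0.0286.

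Grin2b was at 164, 207, 205 and 399 CPM against 161, 155, 167 and 184, a log2 difference of 0.55 (SE 0.216, adjusted p = 0.22). The difference was 0.20 (adjusted p = 0.187) without the library at 399, replicate 5. Grin2d was at 4.95, 5.69, 6.64 and 10.6 against 8.44, 8.93, 10.5 and 11.2, a difference of -0.50 (SE 0.206, adjusted p = 0.233). Here replicate 5 was the only library labelled Sirt1-KO within the D1 Con range, and without it the difference was -0.77 and called (adjusted p = 0.0116), as were 1020 genes (7.41%) in place of 226. The number of genes called also fell to 41 without Sirt1-KO replicate 3, 66 without replicate 4, 107 without replicate 1, and to 104, 49 and 62 without D1 Con replicate 1, 3 or 4.

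Grin1 was at 746, 769, 827 and 828 CPM against 800, 693, 763 and 690, a difference of 0.11 on the log2 scale (interval of the fold 0.976 to 1.19). Grin2c differed by -0.01 (0.785 to 1.25). Grin3a was at 68.4, 75.1, 65.8 and 63.3 against 45.1, 68.5, 71.4 and 59.2 and differed by 0.16 (0.928 to 1.34). All 3 overlapped between the groups, and Grin3b, with 1 to 3 counts in the libraries labelled Sirt1-KO, was not tested. These libraries are set against the same D1 Con IPs as the stress groups, so the comparisons are not independent.

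**Figure D5:**
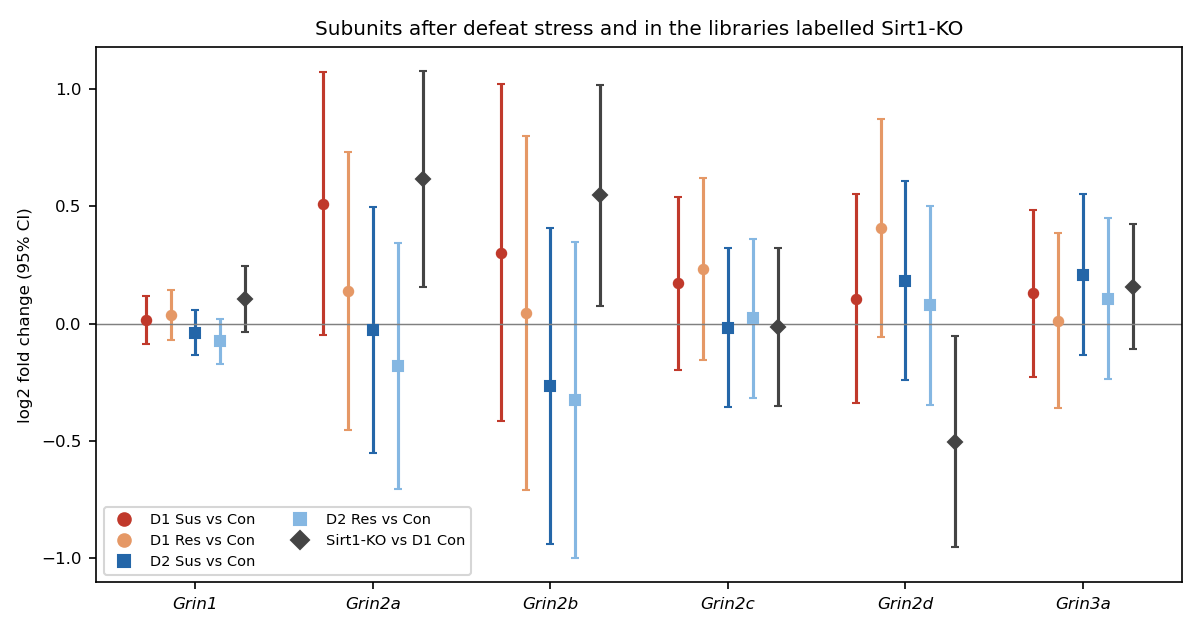
Log2 fold change with 95% interval of 6 NMDA receptor genes in 5 contrasts among IPs, the stress contrasts of each line against Con and the libraries labelled Sirt1-KO against D1 Con. Intervals are narrowest for Grin1 (fold 0.942 to 1.08 for D1 Sus) and widest for Grin2b, and no point is called at an adjusted p under 0.05.

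Proteins that hold, modify or feed the receptor were taken as 3 lists. Among 23 scaffold and anchoring genes, 4 were higher and 7 lower in D1 than in D2 IPs (median log2 -0.05), beside 19.6% higher and 21.3% lower over all genes (median -0.02). Dlgap1 (0.70) and Shank1 (0.41), which join the postsynaptic scaffold, and Homer2 (0.62), which links it to metabotropic receptors, led the higher ones. Actn2 (-0.40), an actin-binding partner of GluN1, Shank3 (-0.28) and Kif17 (-0.21), a motor that carries GluN2B, led the lower ones.

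Of 22 kinases, phosphatases and calcium effectors, 5 were higher and 5 lower (median 0.05), close to the same shares over all genes. Prkca (0.71), a protein kinase C isoform, and Rasgrf2 (0.54), a calcium-dependent Ras activator, stood on one side, and Ptpn5 (-0.35), the striatal phosphatase STEP that acts on GluN2B, Ppp3ca (-0.18), the catalytic calcineurin subunit, and Camk2b (-0.11) on the other. For the co-agonists, 10 of 12 listed genes were tested, with 4 higher and 1 lower (median 0.10), against 19.6% and 21.3% over all genes. Astrocyte markers were higher in the same comparison (6 of 6, median 0.49), and their part was not tested. The called genes include Phgdh (0.89), the enzyme that starts serine synthesis, Slc6a9 (0.39), a glycine transporter, Slc1a4 (0.19), a serine transporter, and Gldc (-0.44), which breaks down glycine.

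Against input, most kinase and effector genes were higher and most co-agonist genes lower, where 39.2% of all genes were higher and 42.7% lower in D1 and 37.8% and 44.9% in D2. In D1, 20 of 22 kinases and effectors were higher and 1 lower (median 0.57), among them Ppp3ca (1.42) and Prkcb (1.07), with Nos1 (-0.70), the neuronal nitric oxide synthase of interneurons, the lower one. In D2, 17 were higher and 2 lower (median 0.35), led by Ppp3ca (1.68), Prkcb (1.13) and Camk2b (1.09), with Nos1 (-0.72) and Prkca (-0.29) lower.

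Scaffold genes went both ways, with 15 higher and 7 lower in D1 (median 0.22) and 14 and 7 in D2 (median 0.23), beside 39.2% and 42.7% of all genes in D1 and 37.8% and 44.9% in D2. Dlg3, a PSD-95 relative, was at 1.08 and 1.09 in the lines, joined by Lin7b (0.56) and Dlgap4 (0.55) in D1 and Actn2 (0.75) and Homer1 (0.61) in D2. Homer3 was at -1.72 and -1.93 and Homer2 at -0.86 and -1.65, followed by Shank2 (-0.76) in D1 and Shank1 (-1.17) in D2. Of the 10 tested co-agonist genes 2 were higher and 7 lower in D1 and 1 and 7 in D2, with Gldc at -3.73 and -3.35, Phgdh at -3.16 and -4.07 and Slc7a10, an astrocyte D-serine and glycine transporter, at -2.85 and -2.95. Shmt1, a serine to glycine converting enzyme, was at 0.55 and 0.79, and Slc1a4 at 0.13 in D1. The astrocyte markers fell with the co-agonist genes (6 of 6 in each line, medians -3.45 and -3.88), and their part was not tested.

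In the stress comparisons of the IPs none of the genes on the 3 lists was called. In the libraries labelled Sirt1-KO, 3 of 22 kinases and effectors were higher than in D1 Con, among them Nos1 (0.56, adjusted p = 0.0139) and Camk2a (0.33, adjusted p = 0.0356), where 0.616% of all genes were higher and 1.66% were called. No scaffold or co-agonist gene was called, with 9 of 23 and 2 of 10 at an unadjusted p under 0.05, against 17.3% of all genes.

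Members also varied together from library to library, which is given as description over libraries that share normalization and, in part, tissue. Grin2a and Grin2b had Pearson r = 0.69 over the 28 IPs and 0.82 over the 18 inputs. Those 28 include the IPs numbered 5, where both genes stood above every other IP, and r without them is not given. Grin2c and Grin3a had r = -0.63 over the IPs, which differ in line, and Grin2d and Grin3a 0.56 over the IPs and 0.51 over the inputs. Among all 14224 genes, those most like Grin3a over the IPs were Camk2d (r = 0.94), Camk2g (0.94) and Disp2 (0.93), those most like Grin2b were Tnrc6b (0.92), Kcng3 (0.91) and Fstl4 (0.89), and those most like Grin2a were Xkr4 (0.90), Tnr (0.89) and Kcnq3 (0.88). For Grin1 they were Bag6 (0.79), Bcas3 (0.78) and Add1 (0.77), for Grin2c Rtel1 (0.88), Mbd6 (0.84) and Mir5125 (0.84), and for Grin2d Dgkq (0.89), Nynrin (0.88) and Cd83 (0.86). Over the 24 IPs not numbered 5, Camk2d stayed the closest to Grin3a (0.95), while Kcng3 (0.81) took the place of Tnrc6b for Grin2b.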

How the data were processed

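RNA-seq counts were used from 50 libraries of 13 groups, assigned by their deposited labels. Per the labels, poly-A RNA of NAc homogenates or HA precipitates was made into stranded libraries, and the authors deposited whole-number counts per gene symbol, not normalized. The submitters' processing notes name cutadapt, FastQC, STAR, HTSeq, DESeq2 and HOMER with mm10; versions, annotation and strand setting are not given in the sources used here. Entries that name no gene (18.0 to 28.3% of reads in IPs, 35.9 to 40.0% in inputs and 19.2 to 23.8% in libraries labelled Sirt1-KO) were left out, as were 2 columns with no matching sample description.

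The 4 D1 Con IPs had identical counts in both tables, and none of the 76 pairs of replicates was a duplicate (chi-square per gene at least 3.60). The labels do not say that pools came from separate cohorts, so p-values measure the spread between these pools of 2 mice. CPM came from the counts with TMM factors. Groups were compared by the quasi-likelihood test of edgeR 4.0.16, run in R 4.3.3 (filterByExpr, minimum count 10, minimum total 15, a mean per group). This left 14224 genes for the 28 IPs, 15404 for IPs with inputs and 13626 for the Sirt1-KO table, which was normalized on its own. The inputs (14820 genes) were fitted by line and stress without interaction. Adjusted p-values are Benjamini-Hochberg values over all genes tested, and genes with an adjusted p under 0.05 are said to be called. Single genes were also compared by permuting log2 CPM (prior count 2). Alternatives were DESeq2 1.42.0, RLE size factors, other filters on low counts, a block for the replicate number, fits restricted to the compared libraries, each library left out, and, chosen after seeing the data, leaving out the libraries numbered 5 or giving them a term. The tests were tried on simulated counts. Figures used Python 3.11.15 with matplotlib 3.10.9.

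The members and the lists of partner and marker genes were chosen with earlier results of these data known. Named are all 7 members, for each list and direction the called genes of largest change (at most 3), and the 3 genes with the highest r with each member, except that some list genes are not reported here; Sirt1, Malat1 and the overlapping genes were named beside these.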

Additional observations from a re-analysis of the deposited data

Results flagged for a closer look

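Grin2b had 1 library far from the others of its group in each of the 4 IP groups that hold a replicate 5, and it was replicate 5 each time. D1 Sus replicate 5 was at 419.9 CPM against 155.7 to 182.2 in the other 4, D2 Con replicate 5 at 480.1 against 169.6 to 205.1, D2 Res replicate 5 at 366.5 against 111.9 to 176.2, and D2 Sus replicate 5 at 395.8 against 150.3 to 170.5. These were 4 of 49 groups of values examined, and all 4 fell on the same gene and number. The groups of values share libraries, so their number was not set against a rate expected by chance.

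The change from input to IP differed between the lines for Grin2c, by -0.45 on the log2 scale (D1 minus D2, adjusted p = 0.00944), and for Grin3a, by 0.82 (adjusted p = 1.73e-05), both by a test of the difference itself in edgeR.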

How the results depend on the processing

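Of 3009 member values recomputed under the alternatives, 2989 kept their side of the threshold and, where called, their direction, 14 lost a call, 4 gained a call and 2 reversed. The sign turned in 203 of them, and a turn where neither value was called counts as kept. Of 472 counts of members called, 462 stayed within 1.5 times. Both reversals were of Grin2b in D2 IP against D2 input, at -0.28 without the 4 IPs numbered 5 and -0.28 with the replicate block. For IP against input that block held only IPs that share a number with an input, and so none numbered 5. Between D1 and D2 IPs, members called in Con went from 2 to 1 with a term for the libraries numbered 5 and were 1 to 2 with each library left out, and in Sus they were 1 to 2 with each library left out, against 1. For the libraries labelled Sirt1-KO, 0 members became 1 with DESeq2 (Grin2a) and 1 with the replicate block (Grin2d, adjusted p = 0.00162), and 0 to 1 with each library left out. The Sirt1-KO block held only replicates 1, 3 and 4 of each group, without Sirt1-KO replicate 5 or D1 Con replicate 2. The cause was not tested, except that fewer libraries enter where some are left out, as in these blocks.

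Numbers shared between groups were not shown to pair libraries, since the labels name no shared litter, day or animal. The title of each input does repeat that of an IP, with the word input added. The main tests of IP against input did not pair them. Of 18 inputs, 8 correlated best with the IP of their own number. Under the replicate block 130 of 133 member values kept their call, the exceptions being Grin2b above, Grin2d above and Grin3b in D2 IP against input (-1.12, adjusted p = 0.0824). For IP against input and for Sirt1-KO this block held fewer libraries, as given above. Counts over all genes moved more than 1.5 times for Sirt1-KO against D1 Con, from 226 to 378 without a filter, 734 with DESeq2, 1629 with the replicate block and 41 to 1020 with each library left out, for the input lines, from 3 to 15 with DESeq2, for D1 against D2 in Con, from 1990 to 1171 without D1 Con replicate 2, and for D1 Res against Con, from 1 to 0 in 4 alternatives and on leaving out any library of these groups except D1 Con replicate 3. No alternative moved the median of all genes by more than 0.084 on the log2 scale. Depth limits Grin3b, with at most 14 counts in a library, and the libraries numbered 5 widen the error of Grin2b (SE of D1 Sus against Con 0.351 with them and 0.146 without).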
